A study of Mus musculus with 16 samples.

Results

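The 9 genes described here carry dopamine and adenosine signals to cyclic AMP in striatal projection neurons: the receptors Drd1a, Drd2 and Adora2a, the G protein subunit gene Gnal, the adenylyl cyclase gene Adcy5, the phosphodiesterase genes Pde10a and Pde1b, the regulator of G protein signalling Rgs9, and Ppp1r1b, which encodes the phosphatase inhibitor DARPP-32. They were chosen by gene symbol, by a rule that used no measured value but was set with earlier results of these data known. All 9 were among the 13277 genes listed in the data. RNA was measured in whole striata of 8 adult mice that carried both Aldh1l1-Cre/ERT2, an inducible Cre driven by an astrocyte gene and backcrossed to C57BL/6N, and RiboTag, an allele that puts an HA tag on a ribosomal protein wherever Cre has acted. Of these, 4 mice received an adeno-associated virus (AAV) for a control protein (mice Y481, Y482, Y483 and Y485) and 4 received an AAV for hPMCA2w/b, a human plasma membrane calcium pump (mice Y486, Y487, Y489 and Y490, called PMCA mice here). Each mouse gave an input library from the cleared lysate and an IP library from RNA precipitated with the HA-tagged ribosomes, so there were 4 groups of 4 libraries. The study asked what less calcium signalling in striatal astrocytes does to striatal microcircuits and repetitive behaviour. The promoter of the virus is not given in the sources used here, and no group lacked Cre, RiboTag or virus.

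Most neurons of the striatum are projection neurons of a direct and an indirect pathway. Direct-pathway neurons carry the dopamine receptor encoded by Drd1a, which stimulates cyclic AMP production, and indirect-pathway neurons carry the receptor encoded by Drd2, which inhibits it, together with the adenosine receptor of Adora2a, which stimulates it. The receptors of Drd1a and Adora2a signal through the olfactory-type stimulatory G protein of Gnal to the cyclase of Adcy5, and that of Drd2 through inhibitory G proteins. Protein kinase A then phosphorylates DARPP-32, the phosphodiesterases break cyclic nucleotides down, and the Rgs9 protein speeds the shut-off of inhibitory G proteins. Input libraries measure these genes in the whole tissue, and IP libraries measure what was found with astrocyte ribosomes.

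Levels are given as log2 CPM, where CPM is a gene's read count, with a small prior count added, scaled to the effective library size. Libraries held 198462 to 686343 reads over the listed genes, and 1 read amounted to 1.59 to 4.46 CPM, so genes at a few reads are imprecise. The summed level of 16 astrocyte markers was 5979 to 6353 CPM in control input, 6582 to 7537 CPM in PMCA input and 8.699e+04 to 1.121e+05 CPM in IP. All 16 were called higher in IP of control mice, where 28.5% of all genes were called higher. The summed level of 18 general neuron markers was 7230 to 9447 CPM in input and 1531 to 1968 CPM in IP. Mouse Atp2b2, the counterpart of the gene carried by the virus, rose in PMCA IP from 7.84 ± 0.21 to 9.93 ± 0.50 log2 CPM (SD, n = 4 each; log2 difference 2.08, SE 0.21, limma adjusted p = 0.000605). In input Atp2b2 stood at 10.58 ± 0.05 in control and 10.55 ± 0.11 log2 CPM in PMCA mice, so no such rise was seen there. How far reads of the human insert were counted under the mouse gene was not tested.

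The receptor genes stand at separate loci of the mouse genome (GRCm38.p6). Drd1a, now named Drd1, lies at chr13:54051183-54055658, Drd2 at chr9:49340360-49408177 and Adora2a at chr10:75316877-75334792. The effector genes lie at chr16:35154494-35305743 (Adcy5), chr17:8525187-8986648 (Pde10a), chr15:103503034-103530056 (Pde1b), chr11:98348406-98357796 (Ppp1r1b) and chr11:109225348-109298181 (Rgs9). RefSeq promoter windows, 250 bases before to 50 after a transcript start, were found for 6 of the 9 genes. All windows of both dopamine receptors and of Rgs9, that is 2 for Drd1 and 1 each for the others, are shown because these genes define the projection neuron types or lay at the ends of the depletion described below. They run 5′ to 3′ on the strand of the gene, with capitals marking the GC box GGGCGG read on either strand.
Drd1 chr13:54055609-54055908, minus strand: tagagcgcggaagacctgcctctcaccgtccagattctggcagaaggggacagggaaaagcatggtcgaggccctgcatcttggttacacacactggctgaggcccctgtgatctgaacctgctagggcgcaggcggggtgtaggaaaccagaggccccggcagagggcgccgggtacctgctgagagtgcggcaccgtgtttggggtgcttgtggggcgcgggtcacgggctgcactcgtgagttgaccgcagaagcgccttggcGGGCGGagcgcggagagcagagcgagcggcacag
Drd1 chr13:54054731-54055030, minus strand: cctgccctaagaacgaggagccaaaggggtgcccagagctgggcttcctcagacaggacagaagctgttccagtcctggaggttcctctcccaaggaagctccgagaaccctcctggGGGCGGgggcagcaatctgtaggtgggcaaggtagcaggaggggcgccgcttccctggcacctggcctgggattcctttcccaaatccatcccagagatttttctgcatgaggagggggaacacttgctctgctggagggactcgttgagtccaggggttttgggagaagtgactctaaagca
Drd2 chr9:49340153-49340452, plus strand: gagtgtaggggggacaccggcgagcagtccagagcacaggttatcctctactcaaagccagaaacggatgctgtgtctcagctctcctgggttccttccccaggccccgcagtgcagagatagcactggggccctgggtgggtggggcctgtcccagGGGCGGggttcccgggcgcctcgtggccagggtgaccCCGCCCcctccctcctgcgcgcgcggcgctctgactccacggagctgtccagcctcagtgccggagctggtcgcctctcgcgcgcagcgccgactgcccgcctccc
Rgs9 chr11:109298132-109298431, minus strand: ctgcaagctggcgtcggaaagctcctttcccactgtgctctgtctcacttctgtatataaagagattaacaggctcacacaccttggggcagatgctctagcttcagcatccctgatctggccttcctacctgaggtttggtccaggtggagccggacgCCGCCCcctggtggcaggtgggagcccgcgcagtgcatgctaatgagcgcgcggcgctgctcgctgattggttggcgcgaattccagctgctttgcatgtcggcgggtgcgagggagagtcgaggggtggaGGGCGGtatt

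The GC box, a motif of many GC-rich promoters, occurred in 8 of the 10 windows of these genes, at least once in each of the 6 genes, against 35.7% of 32851 windows of all genes. The cyclic AMP response element TGACGTCA occurred in 0 of the 10 windows, against 1.79% of all, and its core TGACG, which lies within it, also in 0 of 10, against 20.8%. The CCAAT box and the TATA box TATAAA each occurred in 2 of the 10 windows, against 37.4% and 13.6% of all. Motifs were read on both strands. The GC content was 65.7% and 59.3% in the Drd1 windows, 70.3% in that of Drd2 and 60.3% in that of Rgs9.

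In control mice all 9 genes were lower in the astrocyte precipitate than in whole striatum, by 4.51-fold for Rgs9 to 18.5-fold for Drd1a. All 9 were called lower (limma, Benjamini-Hochberg adjusted p under 0.05 over all genes tested), where 26.9% of the 6887 genes tested were called lower. Input and IP libraries did not overlap for any of the 9, with IP lower, as for 24.8% of genes. Of the 9, Drd1a, Drd2 and Adora2a passed the filter on low values (25.8 CPM in at least 4 of the 8 libraries) through their input libraries alone, and so could be tested only because input was high. The median log2 change was -3.09 over the 9 genes and 0.06 over all genes. In PMCA mice all 9 were again lower, by 3.44-fold for Rgs9 to 9.29-fold for Drd1a, with a median of -3.00 against 0.03 over all genes. There, 26.6% of 6751 genes were called lower and 24.4% did not overlap with IP lower. Drd2 and Adora2a passed the filter through input alone there. The 2 treatments share no mouse.

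**Figure D1:**
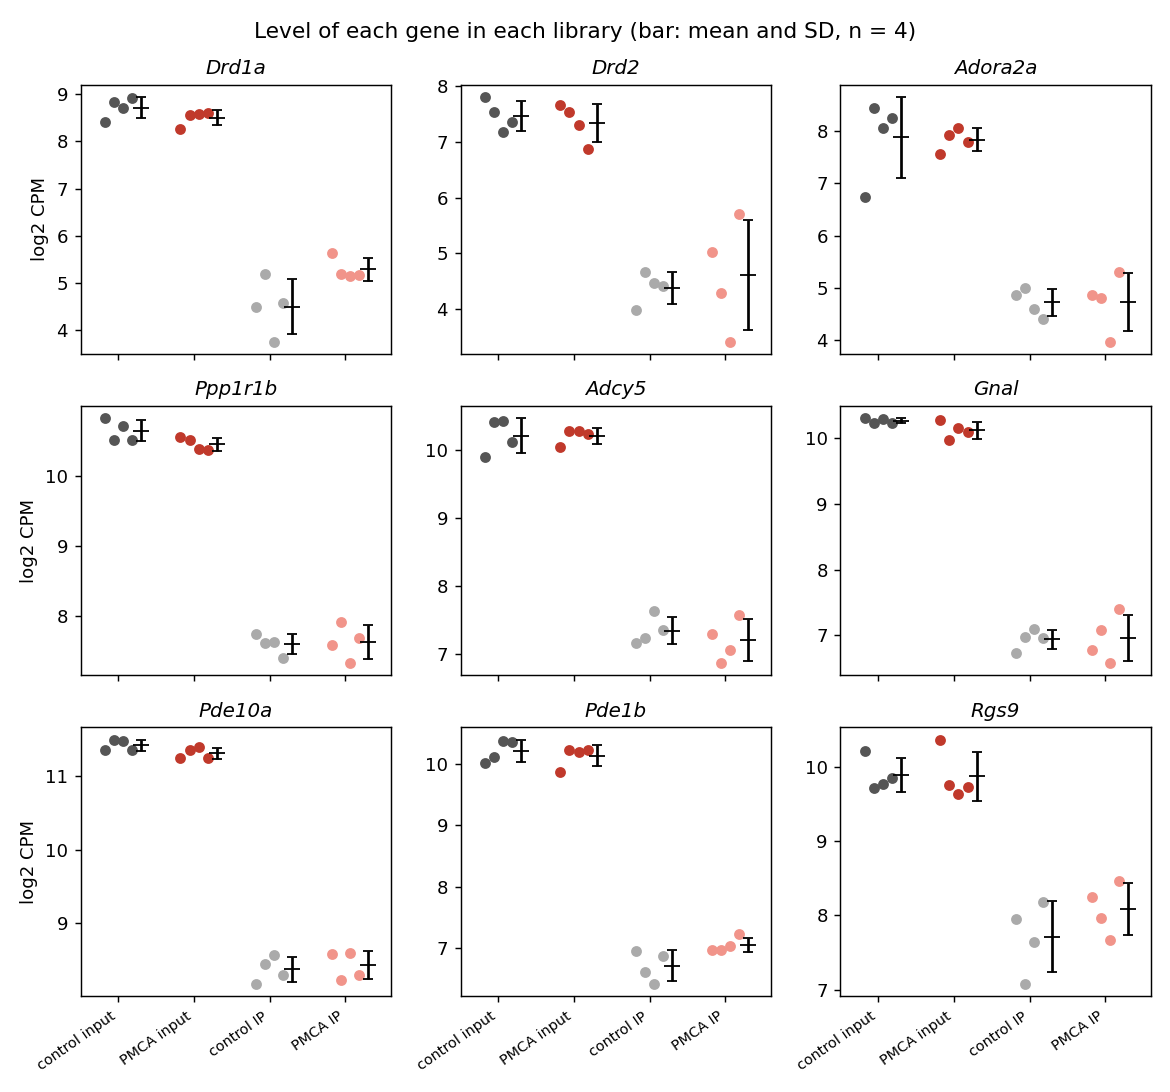
Level of each gene in log2 CPM (vertical axes, 1 panel per gene with its own range) in the 16 libraries, by group; points are libraries, and bars are the mean and SD of 4. In every panel the IP points lie below all input points, and control and PMCA points of 1 fraction overlap except for Pde1b in IP.

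Drd1a, the receptor of direct-pathway neurons, had control input levels of 8.41, 8.83, 8.70 and 8.92 log2 CPM in Y481, Y482, Y483 and Y485. Its control IP levels were 4.50, 5.19, 3.76 and 4.58, from 6 to 16 reads a library. The log2 change was -4.21 (SE 0.27, limma adjusted p = 1.43e-10). In control mice the gene entered this test through its input libraries alone. In PMCA mice Y486, Y487, Y489 and Y490 the gene stood at 8.26, 8.57, 8.59 and 8.61 in input and at 5.64, 5.19, 5.16 and 5.17 in IP, a log2 change of -3.22 (SE 0.21, limma adjusted p = 1.06e-10). The IP levels spread over more than a log2 unit in control mice, while PMCA mice held close to each other except for Y486, which was highest.

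Drd2, the inhibitory receptor of indirect-pathway neurons, had control input levels of 7.80, 7.53, 7.18 and 7.35 and control IP levels of 3.98, 4.66, 4.47 and 4.41 log2 CPM. The change was -3.09 (SE 0.28, limma adjusted p = 1.64e-08). In both treatments the gene entered the test through its input libraries alone. In PMCA mice it stood at 7.66, 7.54, 7.30 and 6.87 in input and at 5.02, 4.29, 3.41 and 5.71 in IP, from 4 to 20 reads a library. Y490, the PMCA mouse with the lowest input level, had the highest IP level, so the PMCA change of -2.73 had a wider error (SE 0.39, limma adjusted p = 8.81e-06).

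Adora2a, the adenosine receptor of the same neurons, had control input levels of 6.75, 8.45, 8.07 and 8.26 log2 CPM. The low value is that of Y481, whose input library held 24 reads of the gene and was the shallowest of the series. Its IP levels were 4.87, 4.999, 4.61 and 4.41 in control mice, and the change was -3.16 (SE 0.32, limma adjusted p = 1.19e-07). In both treatments Adora2a passed the filter on low values through input alone. In PMCA mice Adora2a stood at 7.56, 7.92, 8.07 and 7.80 in input and at 4.87, 4.81, 3.97 and 5.30 in IP, a change of -3.10 (SE 0.28, limma adjusted p = 1.57e-08).

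Gnal, the G protein subunit gene that couples the Drd1a and Adora2a receptors to the cyclase, was the steadiest of the 9 in control input, at 10.29, 10.23, 10.28 and 10.22 log2 CPM. Control IP libraries held 6.74, 6.98, 7.09 and 6.96, a change of -3.31 (SE 0.13, limma adjusted p = 2.55e-13). In PMCA mice the change was -3.15 (SE 0.17). Adcy5, the main striatal cyclase, went from 9.88, 10.40, 10.42 and 10.11 in control input to 7.15, 7.24, 7.62 and 7.35 in control IP, a change of -2.86 (SE 0.15, limma adjusted p = 1.18e-11). Its change in PMCA mice was -3.00 (SE 0.16). For both genes the lowest input library lay more than 2 log2 units above the highest IP library in each treatment.

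Pde10a, a phosphodiesterase concentrated in projection neurons, stood at 11.35, 11.50, 11.48 and 11.36 log2 CPM in control input and at 8.18, 8.45, 8.57 and 8.30 in control IP, a change of -3.05 (SE 0.12, limma adjusted p = 1.05e-13). Pde1b, a calmodulin-dependent phosphodiesterase, stood at 10.02, 10.12, 10.39 and 10.36 in control input and at 6.95, 6.60, 6.40 and 6.87 in control IP. Its change of -3.51 (SE 0.16, limma adjusted p = 1.09e-12) lay between those of Drd1a and Gnal. In PMCA mice the changes were -2.88 for Pde10a and -3.09 for Pde1b. Ppp1r1b stood at 10.82, 10.51, 10.71 and 10.52 in control input and at 7.75, 7.61, 7.64 and 7.40 in control IP, a change of -3.04 (SE 0.13, limma adjusted p = 5.67e-13), and its change in PMCA mice was -2.82.

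Rgs9 lost less than the other members. It stood at 10.21, 9.71, 9.77 and 9.85 log2 CPM in control input and at 7.96, 7.08, 7.64 and 8.18 in control IP, a change of -2.17 (SE 0.20, limma adjusted p = 4.57e-08). In PMCA mice it stood at 10.36, 9.75, 9.63 and 9.73 in input and at 8.25, 7.96, 7.67 and 8.46 in IP, a change of -1.78 (SE 0.19, limma adjusted p = 1.32e-07). Within each mouse, Rgs9 was the least depleted of the 9 genes in 6 of 8 mice. The exceptions were Y481, where Adora2a was, and Y490, where Drd2 was, both from few reads. Drd1a was the most depleted in 5 of 8 mice.

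Summed over the 4 control mice, IP held 44 reads of Drd1a against 524 in input, which after scaling to library size left 5.42% of the input level (exact 95% interval 3.89 to 7.38%, counting error only). For Rgs9, 411 against 1144 reads left 23.2% (20.7 to 26.0%). The other 7 genes left between 8.60% for Pde1b and 13.4% for Adcy5. In PMCA mice Drd1a left 10.9% (8.42 to 14.0%) and Rgs9 29.6% (26.6 to 32.8%). For Rgs9 the control interval lay above those of the other 8 genes, of which the highest upper bound was 16.6%, for Drd2. Differences between genes were not tested over mice.

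**Figure D2:**
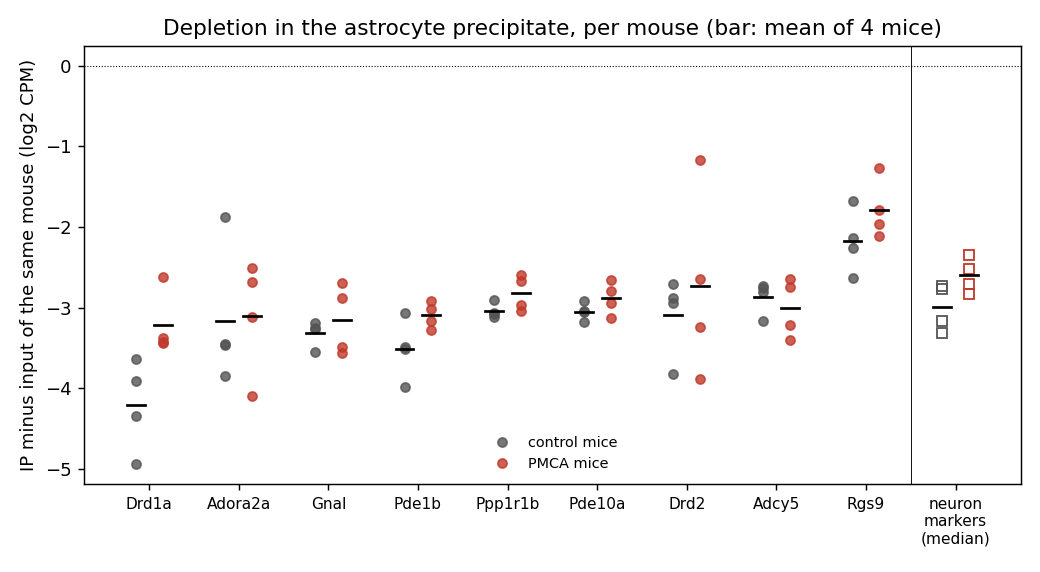
IP minus input in the same mouse, in log2 CPM (vertical axis), for each of the 9 genes in control (grey) and PMCA (red) mice, with squares for the median over 18 general neuron markers; bars are means of 4 mice. Rgs9 lies highest, with means of -2.17 and -1.78, and the control points of Drd1a lie lowest, from -4.94 to -3.64.

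The members' depletion lay within the range over neuron markers outside the pathway. In control mice the fitted changes of 17 tested markers ran from -4.70 to -0.36. Their median was -3.62, against -3.09 for the 9 genes. In PMCA mice 16 tested markers ran from -4.17 to -0.47, with a median of -2.97 against -3.00. Taken within each control mouse over all 18 general neuron markers, the median was -2.74, -3.32, -3.16 and -2.77 in Y481, Y482, Y483 and Y485. The median of the 9 genes in the same mice was -3.07, -3.16, -3.07 and -3.12. In PMCA mice the neuron marker median ranged from -2.82 to -2.35 and the median of the 9 genes from -3.22 to -2.67. In Y487 they stood at -2.35 and -3.13. Whether the reads left in IP came from neuronal RNA carried along or from astrocytes was not tested.

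Genes with some of the most similar profiles over all 16 libraries were Phactr1 (Pearson r = 0.996 with the mean of the members), Gng7, the gamma subunit that partners the Gnal protein (0.995), the glutamate receptor gene Grm5 (0.995) and Arpp21, which encodes another cyclic AMP-regulated phosphoprotein (0.994), of 8082 genes compared. The gap between fractions sets these values. Over the 8 input libraries alone the ranking was led by Lars2 (0.952), Zcchc12 (0.936), Mir6236 (0.920), Usp45 (0.913) and Lmo3 (0.912), and none of the genes named before returned. In input the members also did not vary as a block: the correlation of each with the mean of the other 8 ran from -0.59 for Rgs9 to 0.76 for Pde10a. Libraries share depth and dissection, and no p is given for these descriptions.

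Other genes of the pathway, 103 in 6 lists by role, divided between the fractions. In control mice 69 could be tested, of which 46 were called lower in IP, 13 higher and 10 neither, with a median log2 change of -1.73. In PMCA mice 49 of 75 were called lower, 13 higher and 13 neither, with a median of -1.74. Of all genes, 26.9% were called lower and 28.5% higher in control mice, and 26.6% and 28.1% in PMCA mice. Genes low in both fractions did not pass the filter on low values, and a gene that passed through 1 fraction alone tends to be lower in the other, so the counts describe the tested genes only. The lists were chosen for their known roles, and the values given are for the genes with the largest called changes in each direction in control mice.

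Of 18 receptor genes, 15 were listed and 7 could be tested in control mice, 4 of them through input alone. All 7 were called lower in IP, among them the serotonin receptor gene Htr1b at -4.46 (limma adjusted p = 0.000321). Htr1b rested on 5 IP reads against 73 in input, a ratio of 22.6-fold with an exact 95% counting interval of 9.27 to 71.8. In PMCA mice 7 of 8 were called lower. Adora1, the inhibitory adenosine receptor gene, was called in control mice (-0.58, limma adjusted p = 0.0417) but not in PMCA mice (0.01, limma adjusted p = 0.986), and no receptor in the list was called for the difference between treatments.

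G protein and RGS genes went both ways. In control mice 13 of 21 were called lower and 6 higher, where 26.9% and 28.5% of all genes were. In PMCA mice 14 and 7 of 23 were, against 26.6% and 28.1% of all genes. Higher calls were about as frequent as over all genes. Of the 21, 8 passed the filter on low values through input alone and 2 through IP alone. Gng3, a neuronal gamma subunit gene, showed -4.87 (limma adjusted p = 0.000727) from 4 IP reads against 61 in input, a ratio of 23.6-fold (8.77 to 89.5), with 2 of 4 IP libraries at 0 reads. In PMCA mice its ratio was 7.12-fold (3.81 to 14.5). Rgs14 showed -4.34 (limma adjusted p = 0.000631) from 5 against 59 reads, 18.3-fold (7.41 to 58.4), with 1 IP library at 0, and was at 5.43-fold (3.06 to 10.3) in PMCA mice. Rgs6 and the inhibitory alpha subunit gene Gnai2 were higher in IP, by 2.64 (SE 0.58, limma adjusted p = 0.000724) and 2.30 (SE 0.17, limma adjusted p = 7.41e-10). Gnas, the ubiquitous relative of Gnal, was also higher in IP (1.07, SE 0.13, limma adjusted p = 9.5e-07), opposite to Gnal. It was named after its value was seen, as were Gnb5 and Rgs7bp, partners of the Rgs9 protein, which were lower by -1.90 and -2.63.

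Among adenylyl cyclases, 3 of 5 tested were called lower and 2 higher in control IP, and 3 and 1 of 4 in PMCA IP. Over all genes, 26.9% were called lower and 28.5% higher in control mice, and 26.6% and 28.1% in PMCA mice. In control mice Adcy3 passed the filter on low values through input alone and Adcy6 through IP alone. In PMCA mice Adcy9 passed through input alone. Adcy1, a calmodulin-stimulated cyclase gene, was at -2.65 (SE 0.19, limma adjusted p = 8.17e-10) and Adcy3 at -1.37 (SE 0.33, limma adjusted p = 0.00146). Adcy2 was higher by 2.18 (SE 0.25, limma adjusted p = 4.65e-07), and by 2.37 in PMCA mice. Adcy6 was called higher (limma adjusted p = 0.0357), from 74 IP reads against 16 in input, a ratio of 2.98-fold (1.72 to 5.49), with 1 input library at 0 reads. The Adcy6 call was lost without Y481, Y482 or Y483, with log2 changes of 1.08, 2.92 and 2.67 (adjusted p = 0.147, 0.0537 and 0.085) against 2.45 in all mice, and with limma run without trend and robust (adjusted p = 0.0651). Adcy3 in PMCA mice lost its call without Y487 (adjusted p = 0.0564).

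Of 7 other phosphodiesterase genes tested, 6 were called lower in control IP and 0 higher, with a median of -1.59. In PMCA IP 9 of 10 were called lower. Over all genes, 26.9% were called lower and 28.5% higher in control mice, and 26.6% and 28.1% in PMCA mice. Of the 7, 3 passed the filter on low values through input alone, as did 5 of the 10 in PMCA mice. Pde4b was at 0.02 in control mice and not called. Pde2a stood at -3.64 (SE 0.22, limma adjusted p = 7.57e-11) and Pde7b at -2.01 (SE 0.19, limma adjusted p = 2.36e-08). Of 23 genes of protein kinase A and DARPP-32 regulation, 17 were called lower and 1 higher in control IP, and 15 and 1 in PMCA IP. Through input alone, 5 of the 23 passed the filter in control mice and 6 in PMCA mice, where 1 passed through IP alone. The kinase regulatory subunit gene Prkar1b (-3.55, SE 0.37, limma adjusted p = 1.47e-07) and the striatum-enriched phosphatase gene Ptpn5 (-3.51, SE 0.20, limma adjusted p = 2.07e-11) were lowest. Prkar2a, another regulatory subunit, was higher by 0.82 (SE 0.32, limma adjusted p = 0.0331). That call was lost without Y481 or Y482 (adjusted p = 0.0941 and 0.11).

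Of 6 tested genes that supply or clear dopamine and adenosine, 4 were called higher in IP of control mice and 0 lower. In PMCA mice 4 of 7 were called higher and 1 lower. Over all genes, 28.5% were called higher and 26.9% lower in control mice, and 28.1% and 26.6% in PMCA mice. Through IP alone, 4 of the 6 passed the filter on low values, and 5 of the 7 in PMCA mice. Nt5e, called lower in PMCA mice (-2.43), passed through input alone. Such genes could be tested only because 1 fraction was high, so these counts show no direction of the list. Maob, a monoamine oxidase gene, was higher by 3.35 (SE 0.40, limma adjusted p = 9.27e-07). Entpd2, a surface enzyme that breaks down extracellular ATP, was higher by 3.72 (limma adjusted p = 0.0015), from 97 IP reads against 7 in input, a ratio of 8.94-fold (4.18 to 22.8). The other 2 called were the monoamine oxidase gene Maoa (2.40) and the adenosine kinase gene Adk (2.53).

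**Figure D3:**
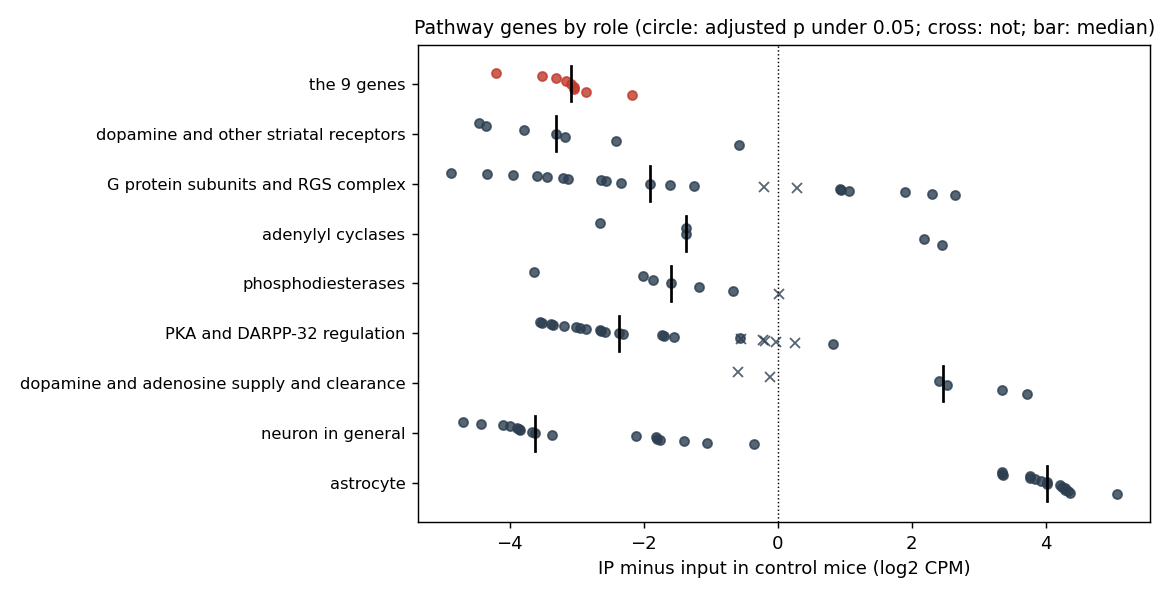
IP minus input in control mice, in log2 CPM (horizontal axis), for the 9 genes (red), the tested genes of 6 pathway lists, and neuron and astrocyte markers; circles passed an adjusted p under 0.05, crosses did not, and bars are list medians. The 9 genes lie between -4.21 and -2.17, the supply and clearance genes reach 3.72, and cyclases and G protein genes fall on both sides of 0.

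The treatment comparison in input asks whether the projection neurons' signalling genes changed in the tissue. None of the 9 genes was called (limma), 0 reached an unadjusted p under 0.05, and 0 were called by voom. The fit called 0.0339% of 5895 genes, so few features of the whole tissue were called at all. In bulk tissue fewer cells of a type and less RNA per cell cannot be told apart. The differences, PMCA minus control, ran from -0.21 for Drd1a (8.71 ± 0.22 against 8.51 ± 0.16 log2 CPM, SD, n = 4 each; 95% interval -0.53 to 0.11) to -0.00 for Adcy5 (10.20 ± 0.26 against 10.20 ± 0.12; interval -0.26 to 0.26). The smallest unadjusted p was 0.0881, for Ppp1r1b (limma; -0.19, interval -0.41 to 0.03, adjusted p = 1). All 9 differences were below 0, where 49.8% of genes were, and control and PMCA libraries overlapped for all 9. Groups separated with PMCA lower for 1.05% of genes and with PMCA higher for 1.48%. Some glial markers were higher beside this. The summed astrocyte level separated the groups, as given above. That of 11 microglia markers overlapped, at 579.5 to 993.9 CPM in control and 812.1 to 2087 CPM in PMCA input. Oligodendrocyte marker sums also overlapped, at 3900 to 5513 CPM in control and 4672 to 5430 CPM in PMCA input. Those of oligodendrocyte precursors did too, at 224.4 to 310.7 CPM and 230.7 to 265.7 CPM. All 8 microglia markers tested had differences above 0, 4 at an unadjusted p under 0.05 and 0 called by limma. Neuron marker sums overlapped, at 7700 to 8424 CPM in control and 7230 to 9447 CPM in PMCA input. The part of these levels in the 9 differences was not tested.

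The intervals bound what these libraries leave possible. For Pde10a, the most precise, the interval of -0.30 to 0.07 spans a 1.23-fold lower to a 1.05-fold higher level in PMCA mice. For Adora2a, the least precise, it spans a 1.56-fold lower to a 1.47-fold higher level. The remaining intervals were -0.37 to 0.08 for Gnal, -0.34 to 0.17 for Pde1b, -0.33 to 0.29 for Rgs9 and -0.57 to 0.32 for Drd2. The misses do not show that the groups are alike, since differences inside these bounds stay compatible with the values of these mice. Each interval is for 1 gene and is not adjusted over genes.

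**Figure D4:**
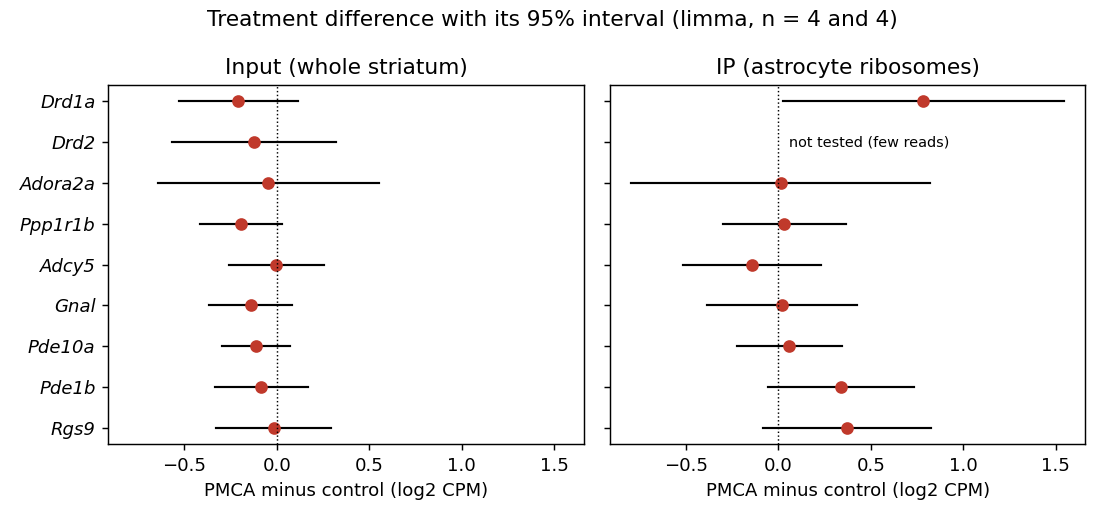
PMCA minus control in log2 CPM (horizontal axes) with 95% limma intervals, for input (left) and IP (right), 4 mice against 4. All input intervals cross 0, and in IP only that of Drd1a lies above 0, from 0.03 to 1.55, with an adjusted p of 0.368.

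The balance of direct- and indirect-pathway receptors was compared within each input library, as Drd1a minus Drd2 in log2 CPM. Transcript lengths were not used, so a value says nothing of which receptor is more abundant and serves only to compare mice. It was 0.60, 1.29, 1.52 and 1.57 in control mice and 0.60, 1.03, 1.29 and 1.73 in PMCA mice. The groups overlapped throughout, and their means of 1.25 ± 0.45 and 1.16 ± 0.47 (SD, n = 4 each) differed by -0.08 (exact two-sided permutation p = 0.743). Drd1a minus Adora2a was 1.66, 0.38, 0.63 and 0.66 in control mice and 0.71, 0.65, 0.52 and 0.80 in PMCA mice, a difference of -0.16 (exact two-sided permutation p = 0.857). The high control value is that of Y481, the library with 24 reads of Adora2a. The test has 70 labelings, and 0.0286 is the smallest p it can give. The 2 balances share Drd1a, and Benjamini-Hochberg adjustment over them leaves both at 0.857.

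**Figure D5:**
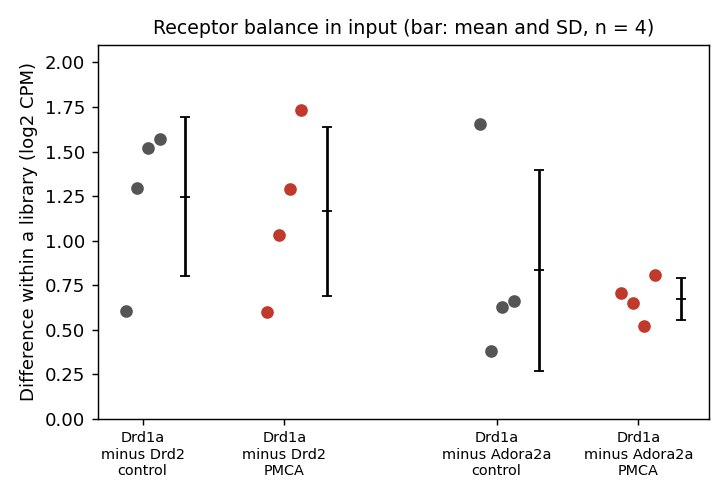
Difference between receptor genes within each input library in log2 CPM (vertical axis), control in grey and PMCA in red; points are mice, and bars are the mean and SD of 4. Control and PMCA points overlap for both balances, and Y481 stands alone at 1.66 for Drd1a minus Adora2a.

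In IP libraries 8 of the 9 genes could be tested between treatments, and 0 were called by limma, where 0.507% of 7094 genes were called. Voom also called 0. Drd2 did not pass the filter on low values, and without a filter its difference was 0.23 (interval -0.69 to 1.14, limma adjusted p = 0.902). Drd1a stood at 4.51 ± 0.58 in control and 5.29 ± 0.24 log2 CPM in PMCA mice (SD, n = 4 each), a difference of 0.78 (SE 0.37). Its limma p was 0.0433 before adjustment and 0.368 after it, and the other 7 genes tested were not under 0.05 before adjustment. Its groups overlapped, since control mouse Y482 at 5.19 lay above 2 of the 4 PMCA mice. Pde1b differed by 0.34 (interval -0.06 to 0.74, limma adjusted p = 0.486), with control levels of 6.40 to 6.95 just below PMCA levels of 6.96 to 7.22. Groups separated in that direction for 3.13% of genes, and in the other for 3.74%. Rgs9 differed by 0.37 (limma adjusted p = 0.503), and the other 5 tested genes by -0.14 to 0.06.

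Some markers of other cell types differed beside these IP differences. The summed level of 11 microglia markers was 137 to 352.5 CPM in control IP and 356.2 to 1231 CPM in PMCA IP, with C1qa and C1qc called higher. Of 2 ependymal markers tested, Foxj1 was called higher in PMCA IP, and Rarres2 was at 0.02 and not called. The neuronal tubulin gene Tubb3 was called lower in PMCA IP (log2 difference -1.19, limma adjusted p = 0.0343). It was the only 1 called of 13 neuron markers tested. Of the 13, 8 had differences above 0 and 5 below, with a median of 0.29. The summed level of the 18 neuron markers overlapped, at 1531 to 1968 CPM in control IP and 1562 to 1802 CPM in PMCA IP. The part of such levels in the Drd1a difference was not tested.

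The loss of Drd1a in IP was tested for a difference between treatments in 1 model of all 16 libraries. IP minus input was -3.91, -3.64, -4.94 and -4.34 in control mice and -2.62, -3.38, -3.43 and -3.43 in PMCA mice, so every PMCA mouse kept more of the input level than every control mouse. Mice separated in that direction for 1.54% of genes and in the other for 1.9%, and Drd1a was the only 1 of the 9 genes to separate. The difference of 0.99 (SE 0.34, interval 0.29 to 1.70) had an unadjusted p of 0.00765 and did not pass adjustment over all genes (limma adjusted p = 0.89). None of the 9 genes was called for this difference by limma or by voom, 1 of 9 was at an unadjusted p under 0.05, and 0.0371% of 8091 genes were called. Of the other 8 estimates, Pde1b was highest at 0.42 (interval -0.01 to 0.86) and Adcy5 lowest at -0.14 (interval -0.60 to 0.32). The lower loss in PMCA mice rests on 44 reads of Drd1a over 4 control IP libraries and 73 over 4 PMCA IP libraries.

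Beyond the 9 genes, 0 of 73 tested pathway genes in input and 0 of 58 in IP were called between treatments by limma. At an unadjusted p under 0.05 stood 4 of the 73 in input, where 3.6% of all genes did, and 6 of the 58 in IP, where 12.9% of all genes did. The 4 in input were lower in PMCA mice, each with an adjusted p of 1.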

How the data were processed

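RNA-seq libraries of input and IP from 8 mice were analysed, 16 in all. Per the labels' protocols, libraries were stranded and depleted of ribosomal RNA. The submitters' processing notes name mm10, STAR, HTSeq, edgeR and limma. Whether counting used strand is not given in the sources used here. Deposited log2 values are CPM that the authors scaled to effective library sizes, with a mean prior of 0.25 reads. Whole reads were recovered for 100% of values within 0.01 reads. The main tests used the deposited log2 values, since log2 is the deposited unit. Voom, run as an alternative, used the recovered reads, and no count model was run.

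Members, lists and tests were chosen with earlier results of these data known. The 9 genes and 103 pathway genes were picked by function, and the pathway genes named are the 2 with the largest called change per list and direction, the genes called between treatments, and those said to be named otherwise. Some genes that this rule names are not reported here. Genes were tested with limma 3.58.1 (R 4.3.3, statmod 1.5.0, variance trend, robust) when at least 4 fitted libraries held a CPM worth 10 reads in a library of median size and the gene had at least 15 reads over them. Calls were made at an adjusted p under 0.05. The difference used all 16 libraries and other comparisons 8. Main fits held a mean per group and no term for mouse. Input and IP of a mouse thus entered as separate libraries, and mouse as a block was an alternative. Receptor balances were tested by exact permutation (scipy 1.17.1). Scripts were tested on simulated data.

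Labels place input and IP on the same mouse. Deviations of paired libraries from their group means correlated with r from 0.04 (Y490) to 0.32 (Y489) over 1677 genes. Of 24 library pairs within groups, 0 were identical. Alternatives changed the prior, filter, scaling, moderation, weights, block and mice fitted.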

Additional observations from a re-analysis of the deposited data

Results flagged for a closer look

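Among 40 groups of 4 libraries tested for a value far from the rest (Dixon's test, about 5% flagged by chance), 4 groups had one, and all 4 came from PMCA mouse Y486. Its Drd1a level was the highest of PMCA IP, at 5.643 log2 CPM, and the lowest of PMCA input, at 8.262 log2 CPM. In PMCA input it also had the lowest Pde1b level, at 9.879 log2 CPM, and the highest Rgs9 level, at 10.362 log2 CPM. Its IP library was the deepest of the series, with 686343 reads. Without Y486 the IP difference of Drd1a was 0.67 (limma adjusted p = 0.567) and the difference of its depletion between treatments 0.79 (limma adjusted p = 0.723).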

How the results depend on the processing

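The count of the 9 genes called was 9, 9, 0, 0 and 0 for IP against input in control and PMCA mice, treatment in input, treatment in IP and the difference, and was the same under every alternative run. With mouse as a replicate block, 9 members were called in each treatment and the Drd1a difference had an adjusted p of 0.805. The block changed no call of a named gene. The fit of all 16 libraries for IP against input was added after seeing the data. Over all genes, calls between treatments moved more. In input they were 2 in the main fit, 8 with all 16 libraries, 1 with the filter at 30 reads, with median-of-ratios factors, without trend and robust, and with voom, and 0 to 10 with a mouse left out. In IP they were 36, against 22 with the filter at 30 reads, 0 without trend and robust, 23 with voom, 15 with all 16 libraries, and 14 to 52 with a mouse left out. For the difference they were 3, or 2 without Y483, Y487, Y489 or Y490. Uncalled signs turned with a mouse left out, where Drd1a minus Drd2 ran from -0.298 to 0.104 and Drd1a minus Adora2a from -0.313 to 0.113. In input, Adcy5 ran from -0.108 to 0.070, Adora2a from -0.423 to 0.143, Drd2 from -0.231 to 0.032, Pde1b from -0.152 to 0.002 and Rgs9 from -0.181 to 0.093. In IP, Adora2a ran from -0.172 to 0.270, Gnal from -0.125 to 0.145, Pde10a from -0.009 to 0.126 and Ppp1r1b from -0.062 to 0.131, and voom gave -0.016 for Adora2a and -0.00029 for Gnal. For the difference, Adora2a ran from -0.169 to 0.488 and Drd2 from -0.171 to 0.734. The cause was not tested. Depth limits Drd1a, Drd2 and Adora2a in IP, at 4 to 31 reads a library.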
